A study of Mus musculus with 12 samples.

Results

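The cardiac fibroblast lineage transcription factors Tcf21, Wt1, Tbx18, Tbx5, Tbx20, Gata4, Gata6, Hand2, Meox1 and Scx were followed through 12 RNA-Seq libraries of cultured mouse cardiac fibroblasts. They were chosen by symbol, as the rows of the count table that carry these 10 names, and make up 10 of its 35275 genes. All 10 passed the filter on low counts, as did 15150 genes in all. The cells came from hearts of 12-week-old C57BL/6 mice with a floxed Smad7 gene and were used at passage 2. Every culture received an adenovirus for 48 h at 100 MOI, which carried GFP in the controls and Cre in the Smad7-KO cells. Cells were then left unstimulated or given TGF-β1 at 10 ng/ml, for 2 h by the sample characteristics and 4 h by the treatment protocol. The 4 groups are unstimulated control, unstimulated Smad7-KO, TGF-β1 control and TGF-β1 Smad7-KO, with 3 libraries in each. The floxed allele was thus present in every group, the control virus is labelled as GFP virus in the sample labels, and the cells are an adherent passaged preparation rather than a sorted population.

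Fibroblasts of the heart derive largely from the epicardium, the outer cell layer that covers the embryonic heart and sends cells into the myocardium. Tcf21, Wt1 and Tbx18 mark that layer and its descendants, and Tcf21 directs descendants toward the fibroblast fate. Resident cardiac fibroblasts also keep a set of factors used in heart formation, including Gata4, Gata6, Tbx5, Tbx20 and Hand2, while Scx and Meox1 are known for matrix production and fibroblast activation. Smad7 is an inhibitory Smad that TGF-β induces and that limits signaling from TGF-β receptors.

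The comparisons ask how loss of Smad7 and stimulation with TGF-β1 changed these factors. Total counts ranged from 19056916 to 25371321 per library, with a median of 22660845. Levels between libraries are given as CPM, read counts scaled to library size after normalization by the trimmed mean of M-values (TMM), as mean ± SD with n = 3. Fold changes were fitted with edgeR's quasi-likelihood test over all 12 libraries, and a gene was called at a Benjamini-Hochberg adjusted p of 0.05 or less over all 15150 genes. Smad7 itself, counted over the whole gene, had 71.4, 74.6 and 77.2 CPM in unstimulated control and 28.6, 28.4 and 31.1 CPM in unstimulated Smad7-KO. With TGF-β1 it had 145, 150 and 142 CPM in the control libraries, and 80.8, 70.0 and 79.5 CPM were found in Smad7-KO. Libraries of the control and Smad7-KO groups did not overlap at either condition. The series text calls the 3 samples of a condition independent, without saying whether separate animals or cultures are meant, so p-values measure the spread between these samples. An exact permutation test of 3 libraries against 3 cannot give a two-sided p below 0.1, so none was used for single genes.

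One library stood apart within its group. In unstimulated control library 2, the median log2 deviation from the mean of all libraries was 0.59 for the 5050 genes of at most 2250 bases and fell by 0.50 on the log2 scale for the 5050 genes of at least 3896 bases. In the other 11 libraries the same medians lay between -0.19 and 0.22. In every Smad7-KO library the short-gene median was below 0 (-0.19 to -0.03) and the long-gene median above 0 (0.03 to 0.18). Control libraries went both ways. The short-gene and long-gene medians were 0.22 and -0.19 in TGF-β1 control library 2, and -0.11 and 0.13 in unstimulated control library 3. Among the factors, 4 belong to the short genes (Tcf21, Hand2, Meox1 and Scx) and 3 to the long ones (Tbx18, Tbx5 and Tbx20). In unstimulated control, library 2 was the highest library for all 4 short members and the lowest for Tbx20 and Tbx5. Results that it moved are also given without it.

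Per gene length, the factors spanned a wide range in unstimulated control fibroblasts. By deposited FPKM (reads scaled to gene length and library total), Tcf21 led with 111 ± 21.2, above 95.8% of the genes tested, followed by Tbx20 with 81.3 ± 37.0. Tbx18 (31.7 ± 5.80), Gata4 (31.3 ± 10.4), Gata6 (17.5 ± 2.51), Scx (13.6 ± 5.04) and Hand2 (12.5 ± 2.97) formed the middle of the order. Tbx5 (1.48 ± 0.380), Meox1 (0.806 ± 0.331) and Wt1 (0.622 ± 0.169) were low, Wt1 above only 15.9% of the genes tested. Libraries of neighbouring factors in this order overlapped between Tcf21 and Tbx20, Tbx18 and Gata4, Gata6 and Scx, Scx and Hand2, Tbx5 and Meox1, and Meox1 and Wt1.

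The order changed with group. In unstimulated Smad7-KO, Tbx20 had 50.7 ± 1.08 FPKM and Tcf21 46.3 ± 0.418 FPKM, and their libraries did not overlap. Meox1 was the lowest factor there with 0.246 ± 0.141 FPKM, next to Wt1 with 0.417 ± 0.0457 FPKM, and libraries of these low genes overlapped. In TGF-β1 control, Meox1 stood at 5.21 ± 0.553 FPKM, above Tbx5 (1.22 ± 0.346) and Wt1 (0.442 ± 0.226) in every library. Scx (18.6 ± 4.06) stood above Gata6 (15.1 ± 0.0881) there with no overlap, and Gata4 (24.8 ± 1.22) above Tbx18 (21.9 ± 1.73) with overlap.

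**Figure D1:**
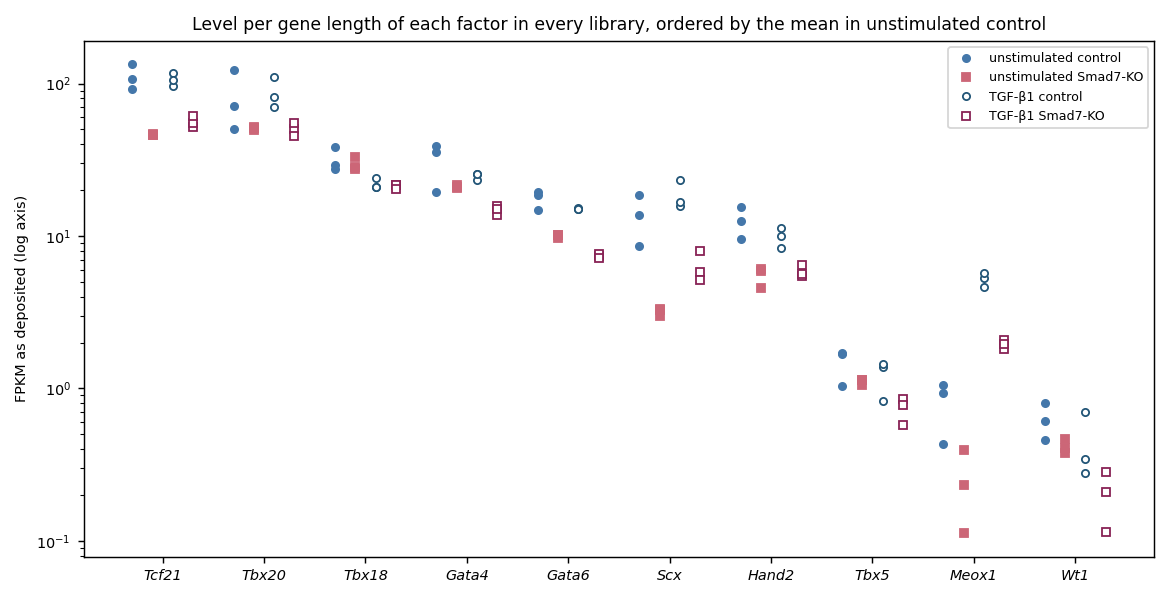
Deposited FPKM of each factor in every library, on a log axis, with the factors ordered by their mean in unstimulated control; circles are control and squares Smad7-KO, filled for unstimulated and open for TGF-β1. Tcf21 and Tbx20 are at the top in all 4 groups, and Meox1 moves from 0.806 FPKM in unstimulated control to 5.21 FPKM in TGF-β1 control.

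Most of the factors were lower in unstimulated Smad7-KO than in unstimulated control. Tcf21, Gata4, Gata6, Hand2, Meox1 and Scx were called lower, which is 6 of 10, and none was called higher. Over all genes tested, 25.8% were called in either direction and 13.7% were called lower. The median log2 fold change of the 10 factors was -0.75 against -0.02 for all genes. Libraries of Smad7-KO lay wholly below those of control for 7 factors, where 41.3% of all genes did not overlap in either direction. Since these are bulk samples, fewer cells of a type and less RNA per cell cannot be told apart.

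With TGF-β1 present, the same 6 factors were called lower in Smad7-KO and again none higher. Here 13.0% of all genes were called in either direction and 7.23% were called lower. The median of the 10 factors was -0.82 against -0.02 for all genes. Libraries did not overlap for 7 factors, all lower, where 44.9% of all genes did not overlap. These unstimulated and stimulated comparisons share no library, although they share one estimate of the spread. DESeq2 called 7 of the 10 factors in each comparison, the same 6 and Tbx20.

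**Figure D2:**
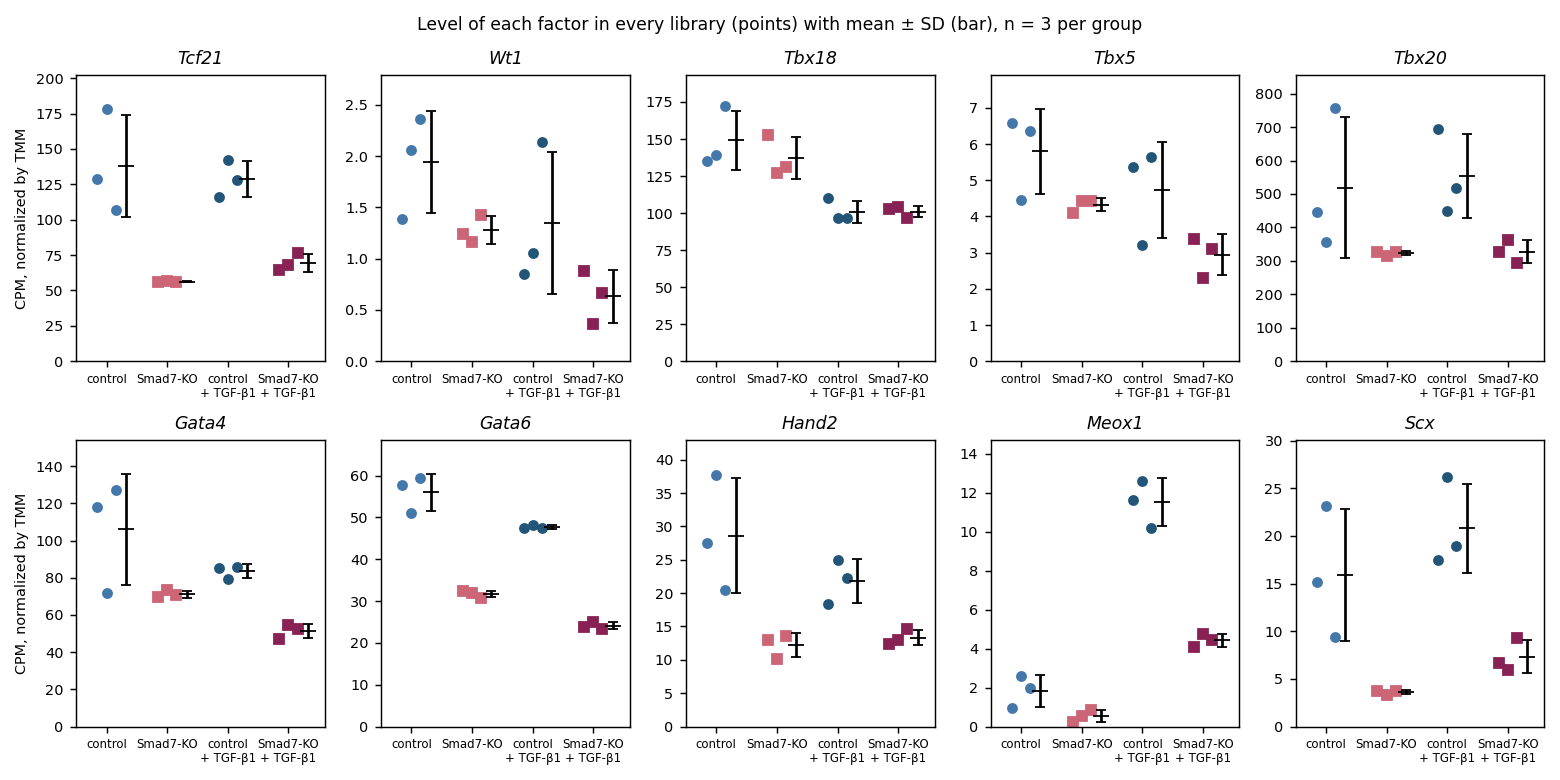
TMM-normalized CPM of each of the 10 factors in every library (points, in the order of the replicate numbers), with the mean and SD of each group as a black bar; every axis starts at 0. Smad7-KO libraries lie below control libraries at both conditions for Tcf21, Gata6, Hand2, Meox1, Scx and Tbx20, while Tbx18 libraries overlap between control and Smad7-KO.

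Among the epicardial factors, Tcf21 fell with Smad7 loss, while Tbx18 and Wt1 did not pass the test. Tcf21, a basic helix-loop-helix factor needed for cardiac fibroblasts to form, is encoded on the minus strand at chr10:22817279-22820128 (GRCm38). It had 129, 178 and 107 CPM in unstimulated control libraries 1 to 3 and 56.0, 56.7 and 55.7 CPM in unstimulated Smad7-KO. The 3 Smad7-KO libraries were nearly equal and all lay under the lowest control. In Smad7-KO it changed by -1.30 ± 0.164 (SE) on the log2 scale, which left 40.7% of the control level (edgeR adjusted p = 5.24e-04). Without unstimulated control library 2 it was -1.07 (edgeR adjusted p = 6.63e-05).

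With TGF-β1, Tcf21 had 116, 142 and 128 CPM in control and 64.1, 68.3 and 76.6 CPM in Smad7-KO. The groups again did not overlap, and the log2 fold change was -0.88 ± 0.163 (edgeR adjusted p = 0.00516). Tcf21 stayed called in both comparisons whichever of the 12 libraries was left out.

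Tbx18, a T-box repressor of the epicardium and its derivatives at chr9:87702800-87731260, had 135, 139 and 172 CPM in unstimulated control and 153, 127 and 131 CPM in unstimulated Smad7-KO. Stimulated control libraries held 110, 97.0 and 96.5 CPM and stimulated Smad7-KO libraries 103, 104 and 97.0 CPM. Control and Smad7-KO libraries overlapped at both conditions. The log2 difference was -0.12 with a 95% interval of -0.37 to 0.14 in unstimulated cells and 0.00 with an interval of -0.26 to 0.26 with TGF-β1. When the trend of counts on gene length was removed, the unstimulated value for Tbx18 was -0.34 (edgeR adjusted p = 0.0155), which is past the threshold.

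Wt1, the zinc finger factor of epicardium and mesothelium at chr2:105126529-105173616, was low throughout, with 8 to 56 reads per library. Its means were 1.94 ± 0.497 CPM in unstimulated control and 1.28 ± 0.140 CPM in unstimulated Smad7-KO, then 1.35 ± 0.692 and 0.633 ± 0.259 CPM with TGF-β1. Libraries overlapped in both comparisons and neither passed the test (edgeR adjusted p = 0.244 and 0.119). The 95% interval of the log2 fold change with TGF-β1, -1.97 to -0.15, was wide at this depth. Without TGF-β1 control library 3 that value was -0.57 (edgeR adjusted p = 0.403).

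Promoter windows of Tcf21, Hand2 and Tbx18 are shown because Tcf21 and Hand2 were called lower in Smad7-KO at both conditions and Tbx18 was not. RefSeq promoters of GRCm38.p6 were at hand for 4 of the 10 factors (Tcf21, Tbx18, Tbx20 and Hand2), each with 250 bases before and 50 from the start site. They are printed on the strand of the gene, 5′ to 3′. Capitals mark CAGAC, the short element that Smad3 and Smad4 can bind, and GATAA, the core of GATA sites, searched on both strands (as GTCTG and TTATC on the other). Tcf21 is at chr10:22820094-22820393 (minus strand), Hand2 at chr8:57320733-57321032 (plus strand) and Tbx18 at chr9:87731211-87731510 (minus strand).
Tcf21: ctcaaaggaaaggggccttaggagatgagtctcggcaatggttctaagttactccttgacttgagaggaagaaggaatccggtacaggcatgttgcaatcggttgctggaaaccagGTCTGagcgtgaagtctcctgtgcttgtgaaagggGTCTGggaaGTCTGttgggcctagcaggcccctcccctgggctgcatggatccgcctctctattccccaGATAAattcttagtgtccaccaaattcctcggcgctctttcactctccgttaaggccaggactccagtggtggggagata
Hand2: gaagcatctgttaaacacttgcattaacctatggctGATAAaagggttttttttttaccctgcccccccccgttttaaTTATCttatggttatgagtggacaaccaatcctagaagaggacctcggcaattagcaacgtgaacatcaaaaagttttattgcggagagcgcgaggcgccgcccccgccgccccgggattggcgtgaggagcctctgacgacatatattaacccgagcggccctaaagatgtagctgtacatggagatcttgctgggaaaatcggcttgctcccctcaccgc
Tbx18: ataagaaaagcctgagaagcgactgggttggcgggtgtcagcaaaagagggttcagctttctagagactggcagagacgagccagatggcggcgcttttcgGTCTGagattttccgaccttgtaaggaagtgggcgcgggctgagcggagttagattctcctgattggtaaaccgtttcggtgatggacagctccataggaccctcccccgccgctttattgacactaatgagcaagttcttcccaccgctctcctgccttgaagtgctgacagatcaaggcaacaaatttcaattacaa

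Tcf21 held 3 CAGAC matches, starting at -134, -99 and -90 from the start site, and 1 GATAA match at -30. Hand2 held no CAGAC match and 2 GATAA matches, at -214 and -172. Tbx18 held 1 CAGAC match at -149 and no GATAA match. No match overlapped one of the other motif. Over all 32851 promoters of this length, 49.6% held CAGAC and 25.4% held GATAA, so either motif is frequent by its letters alone. A match describes letters in this window and is no evidence of a bound site.

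Of the T-box factors used in heart formation, neither passed the edgeR test over all libraries for Smad7 loss, while DESeq2 called Tbx20. Tbx20, at chr9:24720812-24774303, represses and activates genes in myocardium and valves. It had 446, 355 and 756 CPM in unstimulated control and 328, 316 and 326 CPM in unstimulated Smad7-KO. Stimulated control libraries held 694, 449 and 519 CPM and stimulated Smad7-KO libraries 327, 362 and 295 CPM. At both conditions all Smad7-KO values lay under the lowest control value, while control libraries differed widely among themselves. The log2 fold changes were -0.68 ± 0.243 (edgeR adjusted p = 0.0565) and -0.76 ± 0.243 (edgeR adjusted p = 0.0626). Without unstimulated control library 2, the lowest control library, the unstimulated value was -0.89 (edgeR adjusted p = 0.0107). Without library 3, the highest, it was -0.31 (edgeR adjusted p = 0.145). The stimulated one also passed without unstimulated control library 2 or 3 (edgeR adjusted p = 0.0127 and 0.00481). With the trend on gene length removed, Tbx20 was -0.98 (edgeR adjusted p = 2.54e-05) and -0.91 (edgeR adjusted p = 4.89e-05), both past the threshold. DESeq2 called it lower at both conditions (DESeq2 adjusted p = 0.0281 and 0.0262). On the compared libraries alone it was called with TGF-β1 and not in unstimulated cells (edgeR adjusted p = 0.00598 and 0.151).

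Tbx5, at chr5:119834663-119885218, is the activator that acts with Gata4 in the early heart. It had 5.80 ± 1.17 and 4.32 ± 0.179 CPM in unstimulated control and Smad7-KO, with no overlap of libraries, and 4.74 ± 1.33 and 2.94 ± 0.563 CPM with TGF-β1, where libraries overlapped. The log2 fold changes were -0.43 (95% interval -0.95 to 0.09, edgeR adjusted p = 0.181) and -0.69 (95% interval -1.22 to -0.15, edgeR adjusted p = 0.0876). Tbx5 passed with TGF-β1 when TGF-β1 control library 2 (-0.89, edgeR adjusted p = 0.0411) or unstimulated control library 2 (-0.67, edgeR adjusted p = 0.0405) was left out.

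Both GATA zinc finger factors, which open and activate heart genes, were called lower in Smad7-KO. Gata6, on the plus strand of chromosome 18, had 57.8, 51.0 and 59.4 CPM in unstimulated control and 32.3, 31.9 and 30.8 CPM in unstimulated Smad7-KO. Stimulated control libraries held 47.5, 48.2 and 47.5 CPM and stimulated Smad7-KO libraries 23.7, 25.0 and 23.4 CPM. The 4 groups formed 4 separate bands with no overlap, and the spread within a group was small. The log2 fold changes were -0.82 ± 0.0889 (edgeR adjusted p = 1.88e-04) and -0.99 ± 0.0894 (edgeR adjusted p = 5.76e-05), with the same call whichever library was left out. The long noncoding RNA 1010001N08Rik overlaps Gata6 on the other strand and had 19 to 86 reads per library, with 2.86 ± 0.679 CPM in unstimulated control and 1.65 ± 0.261 CPM in unstimulated Smad7-KO (edgeR adjusted p = 0.0675).

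Gata4, at chr14:63198922-63271692, had 118, 71.8 and 127 CPM in unstimulated control and 69.5, 73.2 and 70.9 CPM in unstimulated Smad7-KO. Control library 2 lay inside the Smad7-KO range, so the groups overlapped. A log2 fold change of -0.57 ± 0.173 was called (edgeR adjusted p = 0.0355). The call held in 3 of the 12 fits that left out a library. Without control library 2 it was -0.78 (edgeR adjusted p = 1.38e-04). Without control library 1 or 3 it was -0.46 and -0.42 (edgeR adjusted p = 0.110 and 0.0507), and without each Smad7-KO library between -0.59 and -0.55 (adjusted p between 0.0898 and 0.107). Leaving out TGF-β1 control library 3 or any TGF-β1 Smad7-KO library, which are outside this comparison, gave adjusted p between 0.0516 and 0.0550.

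With TGF-β1 the Gata4 groups did not overlap, at 85.4, 79.1 and 85.7 CPM in control and 47.1, 54.8 and 52.3 CPM in Smad7-KO. The log2 fold change was -0.70 ± 0.173 (edgeR adjusted p = 0.0223). Leaving out any of these 6 libraries kept it between -0.75 and -0.64 and moved the adjusted p to between 0.0594 and 0.0987.

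Hand2, a basic helix-loop-helix factor of the ventricle and neural crest at chr8:57320983-57324517, had 27.5, 37.7 and 20.5 CPM in unstimulated control and 13.0, 10.2 and 13.5 CPM in unstimulated Smad7-KO. Here too the ranges of the groups were apart. The log2 fold change was -1.22 ± 0.210, which left 42.8% of the control level (edgeR adjusted p = 0.00282), and it was -0.97 without unstimulated control library 2 (edgeR adjusted p = 0.00208). With TGF-β1 the libraries held 18.4, 24.9 and 22.2 CPM in control and 12.4, 12.9 and 14.6 CPM in Smad7-KO. The log2 fold change there was -0.71 ± 0.208 (edgeR adjusted p = 0.0441). This call was lost without TGF-β1 control library 2 or 3 (edgeR adjusted p = 0.185 and 0.111) and without each TGF-β1 Smad7-KO library (adjusted p between 0.0802 and 0.146), with values between -0.77 and -0.60. Among libraries outside the comparison, it was also lost without unstimulated control library 1 or any unstimulated Smad7-KO library (adjusted p between 0.0534 and 0.0668).

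The gene head to head with Hand2 was also called lower with Smad7 loss in unstimulated cells. The transcript RP24-459A4.1, named Hand2os1 in GENCODE, starts 124 bases from Hand2 and runs on the other strand. It had 12.6 ± 3.15 CPM in unstimulated control and 6.14 ± 0.967 CPM in unstimulated Smad7-KO (log2 fold change -1.03, edgeR adjusted p = 0.00644). With TGF-β1 it had 7.05 ± 0.999 CPM in control, against 4.47 ± 0.792 CPM in Smad7-KO (-0.66, edgeR adjusted p = 0.0645). For TGF-β1 against no stimulation it was called lower in control (-0.83, edgeR adjusted p = 0.0274), where Hand2 gave -0.39 (edgeR adjusted p = 0.329). In Smad7-KO it gave -0.46 (edgeR adjusted p = 0.263) and Hand2 gave 0.12 (edgeR adjusted p = 0.877). It was named after its values were seen. The annotated genes do not overlap.

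Scx, the basic helix-loop-helix factor scleraxis of tendon, valve and matrix-producing cells at chr15:76457438-76459468, had the largest fitted fall of the 10 in both Smad7-KO comparisons. It had 15.2, 23.1 and 9.36 CPM in unstimulated control and 3.72, 3.35 and 3.69 CPM in unstimulated Smad7-KO. Stimulated control libraries held 17.5, 26.2 and 18.9 CPM and stimulated Smad7-KO libraries 6.70, 5.97 and 9.25 CPM. The Smad7-KO libraries were below all control libraries of the same condition. The log2 fold changes were -2.14 ± 0.307 (22.7% of control, edgeR adjusted p = 0.00106) and -1.51 ± 0.292 (35.1% of control, edgeR adjusted p = 0.00663). Without unstimulated control library 2 the first was -1.77 (edgeR adjusted p = 6.12e-04), and both calls held whichever library was left out.

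Scx lies inside Bop1, a ribosome biogenesis gene on the other strand. None of the 21 annotated Bop1 exons overlaps Scx. Bop1 had 54.9 ± 8.47 CPM in unstimulated control and 40.8 ± 1.77 CPM in unstimulated Smad7-KO (log2 fold change -0.43, edgeR adjusted p = 0.0408), a smaller fitted change than that of Scx. The part of unspliced Bop1 reads in the Scx count was not tested.

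Meox1, a homeobox factor of somites and of activated fibroblasts at chr11:101877510-101894374, was lower in Smad7-KO and higher with TGF-β1. It had 0.941, 2.57 and 1.98 CPM in unstimulated control and 0.248, 0.515 and 0.868 CPM in unstimulated Smad7-KO, which are 5 to 47 reads per library. Stimulated control libraries held 11.6, 12.6 and 10.2 CPM and stimulated Smad7-KO libraries 4.07, 4.75 and 4.44 CPM. The lowest unstimulated control library was close to the highest Smad7-KO library, and with TGF-β1 the groups were far apart. The log2 fold change for Smad7 loss was -1.70 ± 0.409 in unstimulated cells (edgeR adjusted p = 0.0145) and -1.38 ± 0.310 with TGF-β1 (edgeR adjusted p = 0.0141). The unstimulated call was lost without unstimulated Smad7-KO library 1 or 2 (edgeR adjusted p = 0.0525 and 0.0577). It was also lost on the compared libraries alone (-1.72, edgeR adjusted p = 0.11). The stimulated call was lost without TGF-β1 control library 2 (edgeR adjusted p = 0.0639) and without each TGF-β1 Smad7-KO library (adjusted p between 0.0512 and 0.0683).

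Fewer of the factors were called for TGF-β1 itself than for Smad7 loss. In control cells 2 of 10 were called, 1 higher and 1 lower, where 8.37% of all genes were called, and libraries did not overlap for 3 factors, where 19.8% of all genes did not overlap. In Smad7-KO cells 3 of 10 were called, 1 higher and 2 lower, where 10.2% of all genes were called, and libraries did not overlap for 8 factors, where 39.0% of all genes did not overlap. By the edgeR test, 3 factors in control and 7 in Smad7-KO had an unadjusted p under 0.05. Of all 15150 genes, 3073 and 3064 did. Meox1 rose 6.32-fold in control (log2 fold change 2.66 ± 0.336, edgeR adjusted p = 3.74e-04) and 7.93-fold in Smad7-KO (2.99 ± 0.387, edgeR adjusted p = 3.80e-04). Every stimulated library was above every unstimulated one, and both calls held whichever library was left out.

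Tbx18 fell with TGF-β1 in both genotypes. The log2 fold change was -0.56 ± 0.118 in control (edgeR adjusted p = 0.0111) and -0.44 ± 0.118 in Smad7-KO (edgeR adjusted p = 0.0348), with no overlap of libraries. Of the fits that left out a library, the control call was lost in that without TGF-β1 control library 3 (-0.52, edgeR adjusted p = 0.0642). In Smad7-KO it was lost without each of the 6 libraries compared, with values between -0.49 and -0.35 and adjusted p between 0.0609 and 0.168, and without TGF-β1 control library 3 (edgeR adjusted p = 0.0597). Gata6 fell with TGF-β1 in Smad7-KO (-0.40 ± 0.0892, edgeR adjusted p = 0.0135), a call lost without Smad7-KO library 1 or 2 of the unstimulated cells or library 1 or 3 of the stimulated cells (edgeR adjusted p = 0.0630, 0.0607, 0.0663 and 0.0607). In control Gata6 gave -0.23 ± 0.0880 (edgeR adjusted p = 0.151), although its libraries did not overlap, and -0.30 without unstimulated control library 2 (edgeR adjusted p = 0.0254). DESeq2 called it in control (-0.25, DESeq2 adjusted p = 0.0252), as did edgeR with the length trend removed (-0.29, edgeR adjusted p = 0.013). Neither limma (limma adjusted p = 0.328) nor the fit on the compared libraries alone (edgeR adjusted p = 0.546) did.

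The other factors missed the threshold for TGF-β1. Scx came nearest, at 1.03 ± 0.307 in Smad7-KO (95% interval 0.35 to 1.70, edgeR adjusted p = 0.0573), with every stimulated library above every unstimulated one, and 0.40 ± 0.282 in control (edgeR adjusted p = 0.483). It was called in Smad7-KO without unstimulated control library 2 or 3 (edgeR adjusted p = 0.00922 and 0.0101), libraries that lie outside that comparison and enter the fit with all groups. DESeq2 (DESeq2 adjusted p = 0.0118) and edgeR with the length trend removed (edgeR adjusted p = 0.00174) also called Scx in Smad7-KO. Neither limma (limma adjusted p = 0.0629) nor the replicate block (edgeR adjusted p = 0.0753) did. With the length trend removed, Scx in control was 0.61 (edgeR adjusted p = 0.0291). Tcf21 gave -0.10 (95% interval -0.45 to 0.25) in control and 0.31 (95% interval -0.04 to 0.67) in Smad7-KO. Hand2 gave -0.39 (-0.84 to 0.06) and 0.12 (-0.34 to 0.58) in the same order, and Tbx20 gave 0.09 (-0.43 to 0.62) and 0.02 (-0.51 to 0.55). Wt1 gave -0.53 (-1.37 to 0.30) and -0.99 (-1.91 to -0.08), and Tbx5 gave -0.30 (-0.82 to 0.22) and -0.55 (-1.09 to -0.02). In Smad7-KO, every stimulated library of Wt1 and Tbx5 was below every unstimulated one (edgeR adjusted p = 0.199 and 0.226). On the compared libraries alone Tcf21, Scx and Tbx5 in Smad7-KO were past the threshold (edgeR adjusted p = 0.00442, 5.13e-04 and 0.049). Without unstimulated control library 2, Tcf21 in control was 0.12 and Tbx20 was -0.12, both against the direction of the full fit. Tbx20 was also -0.10 without TGF-β1 control library 1, so its direction there was not set by a single library. Called without a library were Tcf21 in Smad7-KO without unstimulated control library 2 (0.32, edgeR adjusted p = 0.0443) and Hand2 in control without unstimulated control library 3 (-0.58, edgeR adjusted p = 0.0366). Hand2 in control was -0.14 (edgeR adjusted p = 0.711) without unstimulated control library 2. Scx in control was 0.76 without that library (edgeR adjusted p = 0.0579), 0.19 when TGF-β1 control library 2 was left out and 0.13 when unstimulated control library 3 was.

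Gata4 gave -0.34 (edgeR adjusted p = 0.299) in control and -0.47 (edgeR adjusted p = 0.129) in Smad7-KO. Without unstimulated control library 2 these were -0.56 and -0.46 (edgeR adjusted p = 0.00115 and 0.00167), both past the threshold, while without unstimulated control library 3 the value in control was -0.19 (edgeR adjusted p = 0.413). On the compared libraries alone Gata4 was called in Smad7-KO (-0.46, edgeR adjusted p = 1.76e-04) and not in control (-0.35, edgeR adjusted p = 0.638).

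A different response to TGF-β1 in Smad7-KO and control was not detected for any factor. The interaction term was called for 0 of 10 factors by edgeR, where 0.0198% of all genes were called, and DESeq2 also called 0. No factor reached an unadjusted p under 0.05, the lowest being 0.0972 for Tcf21. The fitted interaction was 0.41 for Tcf21 (95% interval -0.09 to 0.91), 0.51 for Hand2 (-0.13 to 1.15), 0.63 for Scx (-0.28 to 1.54) and 0.33 for Meox1 (-0.78 to 1.43). These intervals are wide. Without unstimulated control library 2 the same values were 0.20 for Tcf21, 0.27 for Hand2, 0.27 for Scx and 0.04 for Meox1, each smaller by more than 1.5 times. Meox1 also ranged from 0.01 without unstimulated Smad7-KO library 1 to 0.83 without library 3 of that group, with 0.64 without unstimulated control library 1.

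**Figure D3:**
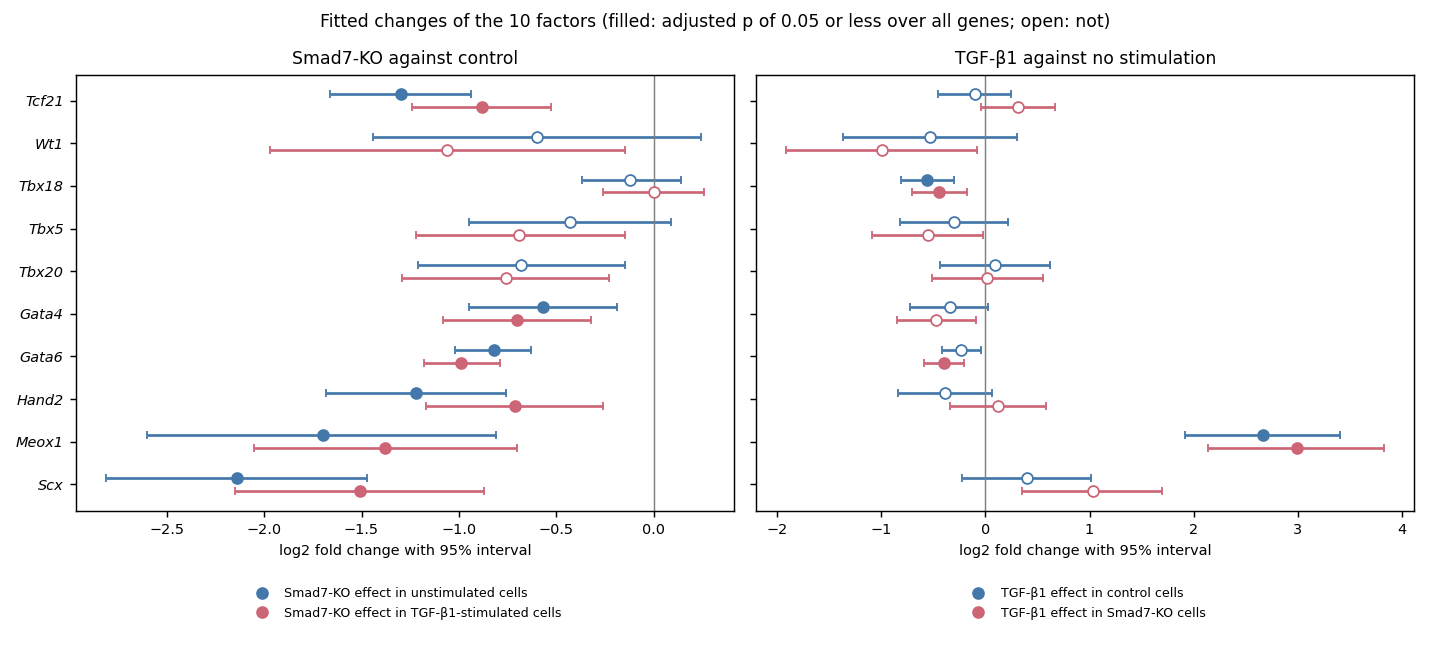
Fitted log2 fold change of each factor with its 95% interval, for Smad7-KO against control (left) and TGF-β1 against no stimulation (right), in each of the conditions or genotypes named in the legend; filled points are called at an adjusted p of 0.05 or less. All called Smad7-KO points lie below 0, from -2.14 for Scx to -0.57 for Gata4 in unstimulated cells, and Meox1 is the one factor called above 0 with TGF-β1, at 2.66 and 2.99.

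The trend on gene length was largest in unstimulated control library 2 and ran in the opposite direction in every Smad7-KO library. The Smad7-KO comparisons were therefore fitted again with the trend of counts on gene length removed. In unstimulated cells Scx moved from -2.14 to -1.75 and Tcf21 from -1.30 to -0.94, while Tbx20 moved from -0.68 to -0.98. The 6 factors called lower stayed called, and Tbx18 and Tbx20 joined them. With TGF-β1, a comparison that holds no unstimulated library, Scx moved from -1.51 to -1.31, Tcf21 from -0.88 to -0.68 and Tbx20 from -0.76 to -0.91. The 6 stayed called there, and Tbx5 (-0.71, edgeR adjusted p = 0.0316) and Tbx20 joined. When GC content was removed along with length, an alternative chosen after seeing the data, Hand2 lost its call with TGF-β1 (-0.46, edgeR adjusted p = 0.0540).

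**Figure D4:**
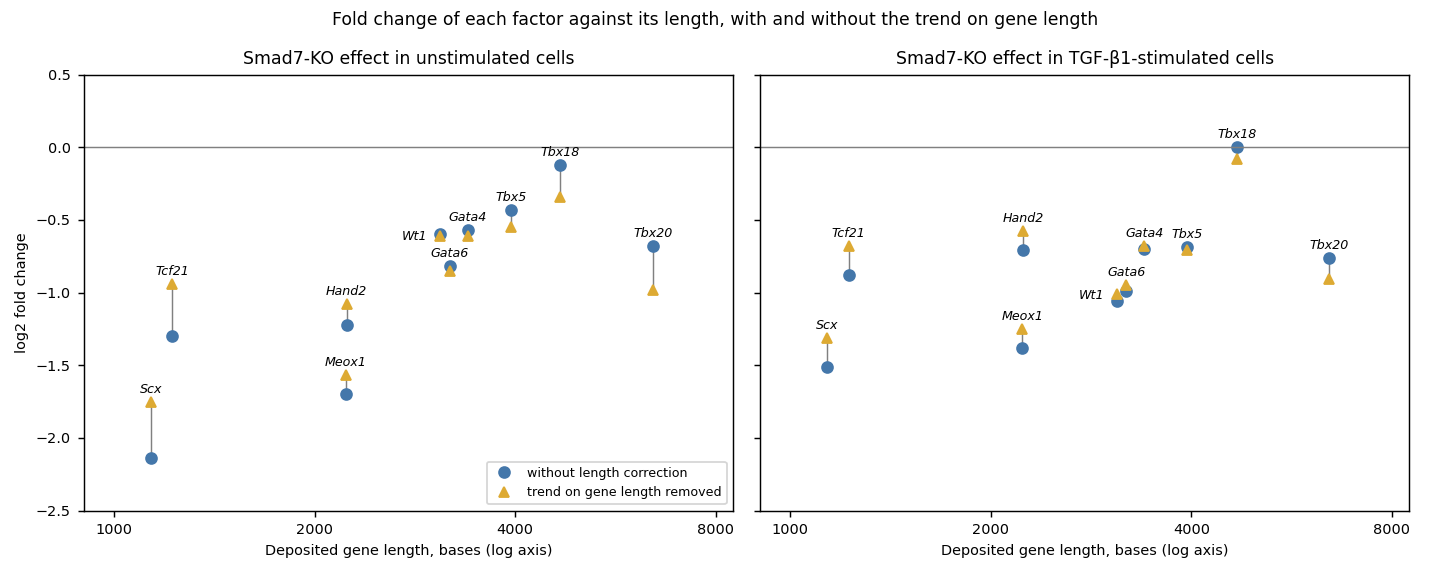
Log2 fold change of each factor for Smad7-KO against control, plotted at its deposited gene length on a log axis, without correction (circles) and with the trend on gene length removed (triangles), joined by a line per gene. In unstimulated cells Scx, at 1136 bases, moves up from -2.14 to -1.75, and Tbx20, at 6436 bases, moves down from -0.68 to -0.98.

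Cell type markers moved with genotype beside these factors. For comparison with the marker counts, 25.8% of all genes were called in unstimulated Smad7-KO and 13.0% with TGF-β1. Of 10 fibroblast markers, 2 were called higher and 3 lower in unstimulated Smad7-KO, with a median of 0.05, and 2 higher and 2 lower with TGF-β1, with a median of -0.14. Thy1, a surface glycoprotein of fibroblasts, fell from 109 ± 11.7 to 37.2 ± 2.65 CPM in unstimulated cells, while decorin (Dcn) rose from 561 ± 46.9 to 682 ± 45.9 CPM. The summed fibroblast list ranged from 12024 to 14325 CPM in unstimulated control and from 11608 to 12334 CPM in unstimulated Smad7-KO, which overlap. With TGF-β1 the sums were apart, at 12444 to 12692 CPM for control and 10624 to 10758 CPM for Smad7-KO.

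Of 10 endothelial markers, 8 were called lower in Smad7-KO at each condition. Their sum ranged from 280 to 329 CPM in unstimulated control and from 26.0 to 28.5 CPM in Smad7-KO, and with TGF-β1 from 288 to 333 CPM and from 28.6 to 29.0 CPM. Pecam1, the endothelial adhesion molecule CD31, fell from 51.0 ± 2.97 to 2.53 ± 0.436 CPM in unstimulated cells.

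Macrophage markers were abundant, and 6 of 10 were called higher in unstimulated Smad7-KO and 5 with TGF-β1. Their sum was 15290 to 23609 CPM in unstimulated control and 21654 to 23803 CPM in unstimulated Smad7-KO. With TGF-β1 it was 15023 to 17395 CPM in control and 20942 to 23415 CPM in Smad7-KO. The label cardiac fibroblasts covers libraries in which macrophage transcripts are plentiful.

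Of 8 epicardial and mesothelial markers tested, out of 10, 5 were called lower and 1 higher in unstimulated Smad7-KO, and 3 lower and 1 higher with TGF-β1. Their sum went from between 354 and 395 CPM to between 270 and 307 CPM in unstimulated cells, and from between 352 and 360 CPM to between 251 and 268 CPM with TGF-β1. Upk1b, a uroplakin of mesothelium, fell from 94.7 ± 7.71 to 41.1 ± 3.53 CPM in unstimulated cells, and Aldh1a2, the enzyme that makes retinoic acid, rose from 40.7 ± 1.57 to 57.0 ± 1.71 CPM. Muc16 had no count in unstimulated control or TGF-β1 Smad7-KO. The part of these other cell types in the changes of the 10 factors was not tested.

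**Figure D5:**
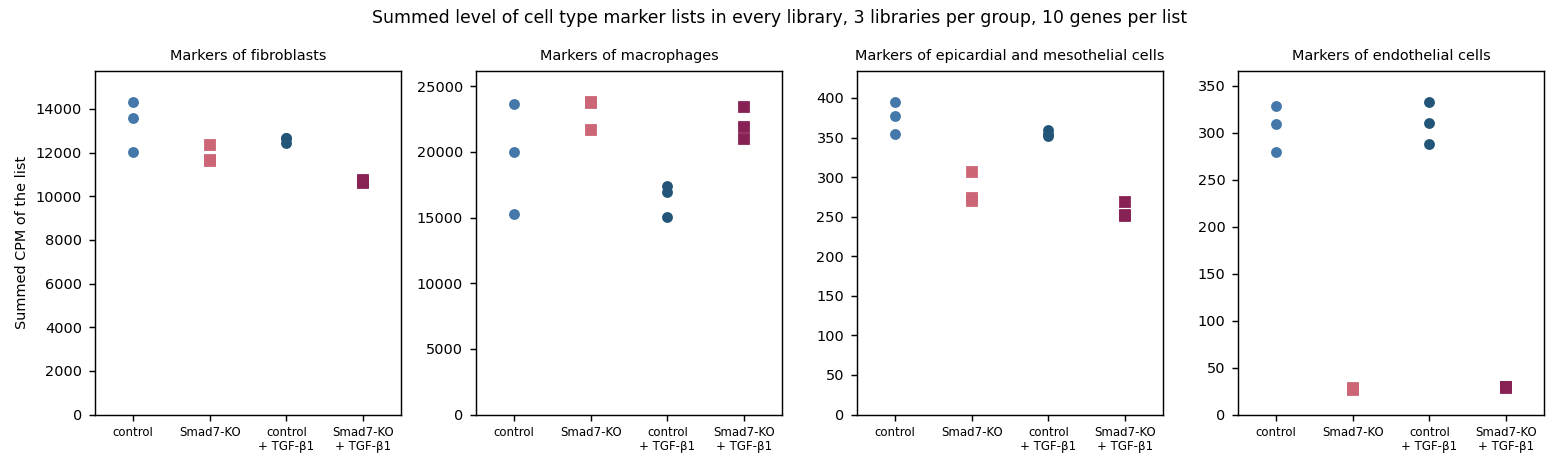
Summed CPM of 10 marker genes for each of 4 cell types in every library (points, 3 per group), with axes that start at 0. Endothelial sums lie between 280 and 333 CPM in all control libraries and between 26.0 and 29.0 CPM in all Smad7-KO libraries, while macrophage sums overlap between unstimulated control and unstimulated Smad7-KO.

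Relatives of the 10 factors were also examined. For TGF-β1 itself, beside the lists below, 8.37% of all genes were called in control and 10.2% in Smad7-KO. Of 17 paralogues, 11 passed the filter, of which 3 were called lower and none higher in each Smad7-KO comparison. Over all genes, 13.7% were called lower in unstimulated cells and 7.23% with TGF-β1. The median log2 fold change of the paralogues was -0.73 in unstimulated cells and -0.84 with TGF-β1. For the 10 factors it was -0.75 and -0.82, so a fall of this size was not particular to them. Gata2, a factor of blood and endothelium, fell from 25.6 ± 3.69 to 5.94 ± 0.366 CPM in unstimulated cells (log2 fold change -2.10, edgeR adjusted p = 9.08e-06) and from 14.0 ± 1.69 to 3.92 ± 0.411 CPM with TGF-β1. Tbx15, a mesenchymal T-box factor, fell from 9.24 ± 1.37 to 5.00 ± 0.570 CPM in unstimulated cells and from 8.36 ± 0.241 to 4.66 ± 0.392 CPM with TGF-β1. The remaining call was Tbx3 in unstimulated cells (-1.43, edgeR adjusted p = 0.0118) and Gata3 with TGF-β1 (-1.22, edgeR adjusted p = 0.0134). With TGF-β1 against no stimulation, 1 paralogue was called higher and 1 lower in control and 1 lower in Smad7-KO, Gata2 being the one lower in both.

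Partners and cofactors of the factors showed no common direction. Of 15 tested, 2 were called higher and 2 lower in unstimulated Smad7-KO, with a median of 0.08, and 2 higher and 1 lower with TGF-β1, with a median of 0.06. Among all genes, 25.8% and 13.0% were called in either direction in these comparisons. Mef2c, a MADS-box partner of GATA and T-box factors, rose from 48.6 ± 15.8 to 86.5 ± 4.73 CPM in unstimulated Smad7-KO, and Nkx2-5, the cardiac homeobox partner of Gata4 and Tbx5, fell from 1.67 ± 1.08 to 0.403 ± 0.136 CPM. With TGF-β1, 3 partners rose in control and 4 in Smad7-KO and none fell, among them Mef2a (146 ± 31.7 to 267 ± 31.0 CPM in control) and the chromatin remodelling subunit Smarcd3 (11.6 ± 3.02 to 26.3 ± 0.376 CPM in control).

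Genes described elsewhere as targets of these factors moved in both directions. Of 14 tested, 2 were called higher and 6 lower in unstimulated Smad7-KO, with a median of -0.62, and 1 higher and 4 lower with TGF-β1, with a median of -0.41. The shares of all genes called in either direction were 25.8% and 13.0%. Bmp4, a secreted growth factor, fell from 186 ± 21.1 to 51.8 ± 8.74 CPM in unstimulated cells (-1.84, edgeR adjusted p = 1.48e-05) and from 120 ± 7.96 to 24.8 ± 2.17 CPM with TGF-β1. Fmod, the collagen-binding proteoglycan fibromodulin, fell from 294 ± 60.3 to 148 ± 7.60 CPM and from 300 ± 18.1 to 141 ± 6.43 CPM. Fgf10, a growth factor that Tbx5 is known to activate, had 3.77 ± 0.856 CPM in unstimulated control and 0.187 ± 0.140 CPM in unstimulated Smad7-KO, at the edge of detection.

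Ctgf, a matricellular protein and a classical TGF-β target, fell from 934 ± 326 to 327 ± 29.5 CPM with Smad7 loss in unstimulated cells (-1.51, edgeR adjusted p = 7.67e-04). It rose with TGF-β1 to 3248 ± 307 CPM in control, against 1582 ± 134 CPM in Smad7-KO. Itga4, an integrin subunit, and Aldh1a2 were the 2 target genes called higher in unstimulated Smad7-KO. With TGF-β1, 4 targets rose and 1 fell in each genotype, Bmp4 being the one that fell in both.

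Other mesenchymal transcription factors of heart and limb were called lower or not at all in Smad7-KO. Of 17 tested, 6 were called lower in unstimulated cells, with a median of -0.30, and 4 with TGF-β1, with a median of -0.26. The shares of all genes called lower were 13.7% and 7.23%. Foxc1, a forkhead factor of mesenchyme, fell from 20.2 ± 1.07 to 7.22 ± 0.745 CPM and from 16.0 ± 1.02 to 6.28 ± 0.285 CPM. Its paralogue Foxc2 fell from 11.9 ± 1.16 to 4.28 ± 0.171 CPM and from 38.2 ± 3.62 to 14.9 ± 1.08 CPM, and rose with TGF-β1 in control (1.68, edgeR adjusted p = 5.59e-06) and in Smad7-KO (1.80, edgeR adjusted p = 3.83e-06). With TGF-β1, 4 of these factors rose in each genotype, and 2 fell in control and 3 in Smad7-KO, Klf4 falling from 88.9 ± 18.0 to 41.6 ± 3.49 CPM in control.

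Likeness among the factors was described by Pearson's r of log2 CPM over the 12 libraries. These share the 4 groups and the length pattern, strongest in unstimulated control library 2, so r describes these libraries and carries no test. Tcf21 was most like Scx (r = 0.96) and Hand2 (r = 0.95) among the 10, and these are 3 of the 4 short members. Gata4 and Gata6 gave r = 0.90. Tbx18 and Meox1, which TGF-β1 moved in opposite directions, gave r = -0.73, while Tbx18 and Tcf21 gave r = -0.05.

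Among the 12203 genes averaging a log2 CPM of 1 or more, the likest to Tcf21 were Wisp2 (r = 0.993), Hes1 (0.989) and Ecm1 (0.989). The likest to Gata6 was Bmp4 (r = 0.992), to Hand2 Igfbp4 (0.984), to Scx Bpgm (0.991) and to Gata4 Zfp365 (0.980). Meox1 was nearest to Hbegf (r = 0.976) and Ctgf (0.974), and Tbx18 to Magi3 (0.972), Adamts5 (0.966) and Adamts1 (0.965). Tbx20 was nearest to Mecom (r = 0.972), whereas the low genes Wt1 and Tbx5 reached no more than 0.903 with Nr2f2 and 0.900 with Hsdl2.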

How the data were processed

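RNA was extracted from passage 2 cardiac fibroblasts and poly-A libraries were made with the NEBNext Ultra kit, per the labels. By the submitters' processing notes, reads were processed with CASAVA, TopHat2 2.0, Cufflinks 2.1.1 and HTSeq 0.6.1 on mm10 and GRCm38.p6. The strand setting of the counting is not given in the sources used here, so reads of overlapping genes on opposite strands cannot be told apart. The deposited counts are whole reads per gene, not normalized. The deposited FPKM equals count per length and library total within 0.01% for all 35275 genes.

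Counts were filtered with filterByExpr (minimum count 10), normalized by TMM and tested with edgeR 4.0.16 (quasi-likelihood, robust, 1 mean per group, all 12 libraries) in R 4.3.3, with Benjamini-Hochberg adjustment over 15150 genes. The 3 libraries of each group follow the sample titles. Comparisons were Smad7-KO against control in each condition, TGF-β1 against none in each genotype, and their interaction. Alternatives were DESeq2 1.42.0, its size factors, limma 3.58.1 on log2(FPKM + 1) with FPKM of at least 1 in 3 libraries, no filter, fits on the compared libraries, a replicate block, removal of a loess trend on gene length (span 0.3), and leaving out each library. A trend on length with GC content was added after seeing the data. The code was tested on simulated data.

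The 10 factors, the gene lists and the rules were chosen with earlier results of these data known. Named genes were all 10 factors, up to 4 called genes of largest change per list and comparison, the 3 likest genes per factor, and Smad7. Genes that overlap or adjoin a factor were named outside this rule. Summed marker levels used lists of 8 or 10 genes. Same-numbered libraries did not deviate together in every pair (r from -0.205 to 0.524), so the numbers were not taken to pair them. Counting depth was 19056916 to 25371321 reads per library, so genes near 1 CPM, such as Wt1, rest on few reads.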

Additional observations from a re-analysis of the deposited data

How the results depend on the processing

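Gata6, Tcf21 and Scx kept their calls for Smad7 loss at both conditions under every alternative run, and Meox1 kept its rise with TGF-β1 in both genotypes. The number of factors called for Smad7 loss in unstimulated cells was 6, and 4 to 8 under the alternatives and 4 to 7 when a library was left out. On the compared libraries alone Gata4 (edgeR adjusted p = 0.142) and Meox1 (edgeR adjusted p = 0.11) were lost there, and limma lost Gata4 (limma adjusted p = 0.0794). For Smad7 loss with TGF-β1 the number was 6, and 5 to 8 under the alternatives and 3 to 8 when a library was left out, 3 being reached without each TGF-β1 Smad7-KO library. For TGF-β1 in control it was 2, with 1 on the compared libraries alone, 4 with the length trend removed, 5 with the length and GC trend removed (chosen after seeing the data), and 1 to 4 when a library was left out (1 without TGF-β1 control library 3, 4 without unstimulated control library 2). For TGF-β1 in Smad7-KO it was 3, with 7 on the compared libraries alone, 6 with the length trend removed, 6 with the length and GC trend removed, 2 with no filter on low counts, and 1 to 6 when a library was left out (1 without unstimulated Smad7-KO library 1 or 2 or TGF-β1 Smad7-KO library 1 or 3, 6 without unstimulated control library 2). With no filter, Tbx18 (edgeR adjusted p = 0.0884) and Gata6 (edgeR adjusted p = 0.0914) were lost there and Scx was gained (edgeR adjusted p = 0.0478). For Smad7 loss with TGF-β1, Hand2 was lost with DESeq2 size factors (edgeR adjusted p = 0.0521) and with length and GC removed (edgeR adjusted p = 0.0540). The interaction was called for 0 factors throughout; on the compared libraries alone it has no separate fit. The cause of these shifts was not tested.

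With the replicate block, 5 factors were called for Smad7 loss at each condition, 2 for TGF-β1 in control and 2 in Smad7-KO: Gata4 was lost in unstimulated cells (-0.55, edgeR adjusted p = 0.0521), Hand2 with TGF-β1 (-0.71, edgeR adjusted p = 0.0701) and Tbx18 for TGF-β1 in Smad7-KO (-0.44, edgeR adjusted p = 0.0643). The block changed no other call. Library 2 of unstimulated control and library 2 of TGF-β1 control deviated together (r = 0.524). Other same-numbered libraries did so little or not at all (r from -0.205 to 0.083), and not every library was most like its own number. Wt1 was not tested by limma, where it missed the minimum FPKM.

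No called value changed direction under the alternatives run. Some values that were not called did. For Tbx18 with Smad7 loss and TGF-β1 these were -0.04 by limma, -0.08 with the length trend removed and -0.10 with the length and GC trend removed, and -0.03 to 0.06 when a library was left out. Leaving out a library took Tbx18 in unstimulated Smad7-KO to between -0.20 and 0.00. For TGF-β1 in control, Tcf21 gave 0.07 and 0.06 with these trends removed and -0.25 to 0.12 when a library was left out, and Tbx20 gave -0.03 with the length trend removed and -0.12 to 0.47 when a library was left out. Tbx20 for TGF-β1 in Smad7-KO gave -0.02 by limma and -0.05 to 0.09 when a library was left out. In the interaction, Tbx20 gave 0.08 with either trend removed and -0.45 to 0.15 when a library was left out, and Meox1 gave -0.55 by limma on log2(FPKM + 1) against 0.33 in the reported fit. Left-out libraries gave -0.78 to 0.02 for Wt1 (reported as -0.46), -0.00 to 0.20 for Tbx18 and -0.28 to 0.10 for Gata4 in the interaction.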

Other observations

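Markers of further cell types were also measured beside the 10 factors. For Smad7 loss, 25.8% of all genes were called in unstimulated cells and 13.0% with TGF-β1. For TGF-β1 itself, 8.37% were called in control and 10.2% in Smad7-KO. Of 5 cardiomyocyte markers tested, out of 8, 2 were called lower in unstimulated Smad7-KO (Tnnt2, from 45.8 ± 21.3 to 17.7 ± 2.63 CPM, and Tnni3, from 4.47 ± 1.82 to 2.04 ± 0.168 CPM, both troponin subunits) and none higher. The other 3 (Myh6, Myl2 and Pln) had higher means in unstimulated Smad7-KO, all under 1 CPM and not called, and the median log2 fold change of the 5 was 1.09. For Smad7 loss with TGF-β1 none was called either way and the median was 0.10. Of 8 smooth muscle and pericyte markers tested, out of 10, 3 were called lower in unstimulated Smad7-KO and 2 with TGF-β1. TGF-β1 raised 2 of them in control and 3 in Smad7-KO, including Pdgfrb, a growth factor receptor of pericytes and fibroblasts, from 145 ± 44.8 to 274 ± 29.5 CPM in control. Of 3 Schwann cell and neuron markers tested, out of 8, none was called in either Smad7-KO comparison, 1 rose with TGF-β1 in control and 2 in Smad7-KO, Tubb3 among the latter (52.7 ± 5.16 to 89.9 ± 6.17 CPM). Among macrophage markers, Cd163, a scavenger receptor, fell with TGF-β1 in control from 6.02 ± 3.56 to 1.16 ± 0.365 CPM and in Smad7-KO from 10.2 ± 2.00 to 2.12 ± 0.406 CPM.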
